A study of Danio rerio with 11 samples.

Results

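The Hox genes of the zebrafish were taken as every gene symbol made of hox, a cluster letter from a to d, a paralogue number and the copy letter a or b. That gave 49 of the 30243 genes listed in the deposited tables, and all 49 passed the filter on low counts. They fall into 7 clusters, with 7 genes in hoxaa, 5 in hoxab, 11 in hoxba, 4 in hoxbb, 11 in hoxca, 4 in hoxcb and 7 in hoxda. By paralogue number, 14 are anterior (groups 1 to 4), 12 are middle (5 to 8) and 23 are posterior (9 to 13). The samples were whole embryos of the TG(fli1:EGFP) line at 48 hours after fertilisation, a line with a green reporter in blood vessels. They comprised 6 aldh3a1_KO libraries, knocked out for an aldehyde dehydrogenase gene, and 5 WT libraries. Both groups carry the reporter, both were raised in E3 medium with or without the pigment inhibitor PTU, and the labels do not give which samples received it. The labels name neither the knockout allele nor the number of embryos or clutches behind a library, so every p-value here measures only the spread between these 11 samples, which may be technical.

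Hox genes encode homeodomain transcription factors that give cells their position along the head-to-tail axis. Within a cluster, genes of low paralogue number are expressed from the hindbrain backwards, and genes of higher number start progressively nearer the tail, an arrangement called collinearity. Zebrafish carry duplicated clusters, marked a and b, from a genome duplication in the ancestor of teleost fish. Retinoic acid switches on anterior members, Polycomb proteins keep clusters silent, Trithorax proteins keep them active, and TALE homeodomain proteins (Pbx, Meis and Pknox) bind DNA beside Hox proteins.

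Library totals were 9.22 to 17.2 M estimated counts in aldh3a1_KO and 18.1 to 19.97 M in WT. Mitochondrially encoded genes took 5.01 to 25.9% of counts in aldh3a1_KO and 4.63 to 5.62% in WT, and aldh3a1_KO 1, 5 and 6 had most. The targeted transcript aldh3a1 was present at 0.834, 0.642, 1.30, 1.07, 0.854 and 0.342 TPM in aldh3a1_KO 1 to 6 and at 1.34, 1.35, 1.18, 1.42 and 1.96 TPM in WT 1 to 5. The groups overlapped, and its log2 fold change of -0.62 ± 0.27 (SE) missed the threshold (adjusted p = 0.0621). Of 28 defining markers of embryo tissues, 27 had a count in every library, and the exception, tbx5a, was at 0 in 2 aldh3a1_KO libraries.

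The TPM scale, on which abundance is divided by transcript length, was used to compare levels between Hox genes. The gene hoxb3a, a group 3 gene of the hindbrain, had the highest mean level in both groups, at 131 ± 32.0 TPM in aldh3a1_KO and 51.6 ± 7.14 TPM in WT (SD, n = 6 and 5). Next in aldh3a1_KO came hoxc4a at 30.1 ± 16.3, hoxc3a at 24.4 ± 13.6 and hoxa4a at 16.6 ± 9.80 TPM, whose SDs overlap. Next in WT came hoxb9a at 31.0 ± 6.63, hoxb8a at 30.8 ± 6.43, hoxc4a at 29.7 ± 5.79 and hoxc3a at 27.6 ± 3.05 TPM, whose order likewise lies within their SDs. The lowest means were those of hoxa13a (0.289 ± 0.185 TPM) and hoxc12b (0.291 ± 0.264 TPM) in aldh3a1_KO. In WT they were those of hoxc11b (0.620 ± 0.0664 TPM) and hoxa13a (0.884 ± 0.397 TPM).

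**Figure D1:**
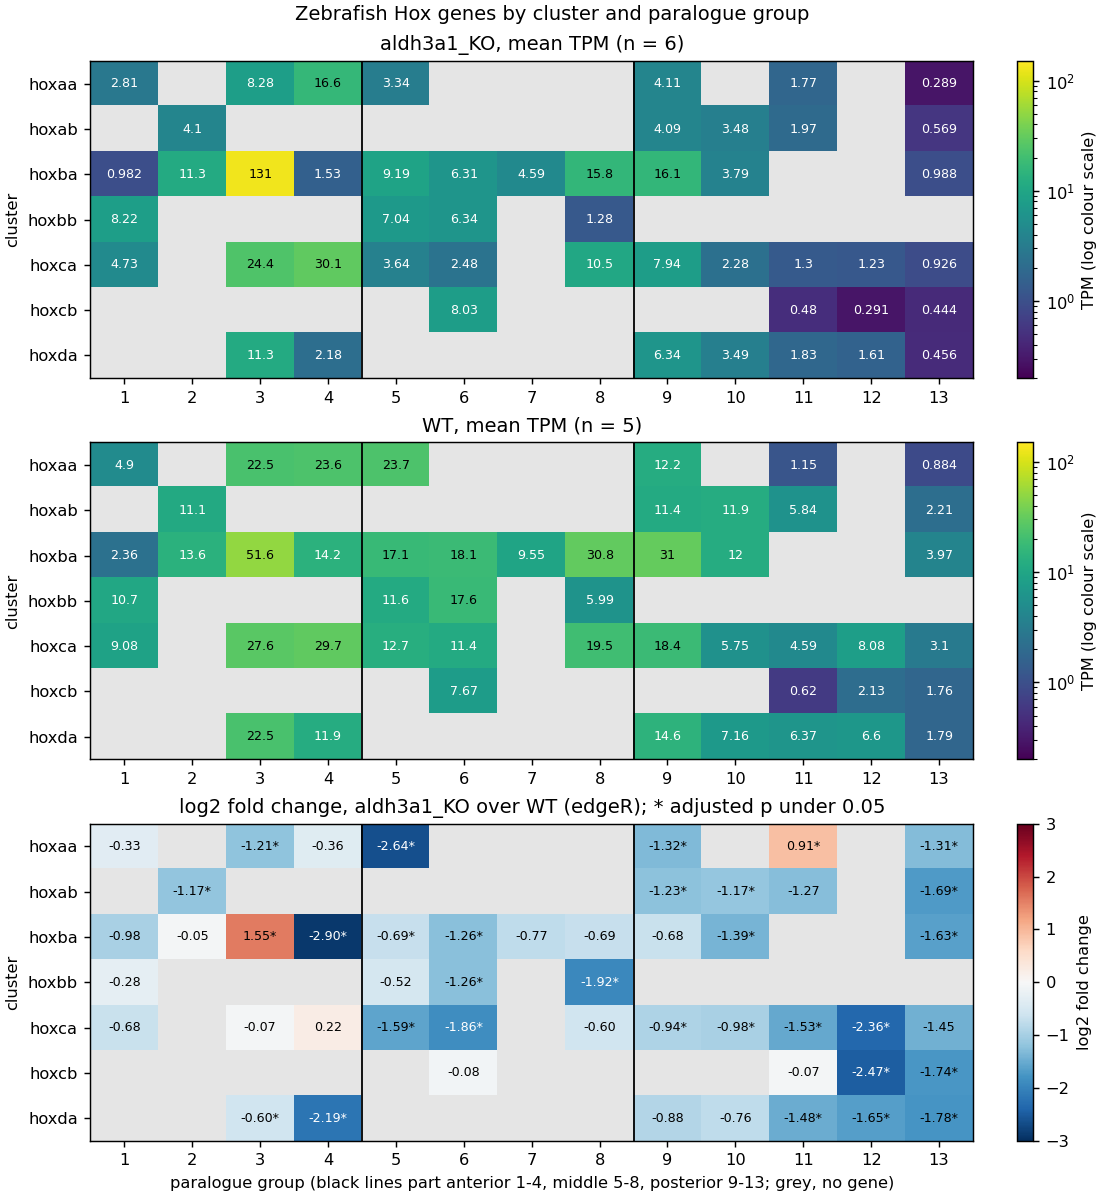
Each square is a Hox gene, placed by cluster (rows) and paralogue group (columns), with its mean TPM in aldh3a1_KO (top, n = 6), its mean TPM in WT (middle, n = 5) and the edgeR log2 fold change of aldh3a1_KO over WT (bottom, asterisk for adjusted p under 0.05). Blue squares, lower in aldh3a1_KO, fill most of the bottom grid, with hoxb3a at 1.55 and hoxa11a at 0.91 as the starred red squares.

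Most Hox genes were lower in the knockouts. With edgeR's quasi-likelihood test and Benjamini-Hochberg adjustment over all 22182 genes tested, 28 Hox genes fell, 2 rose (hoxb3a and hoxa11a) and 19 did not pass an adjusted p of 0.05. The background is wide, since 55.3% of all tested genes changed, 29.3% being lower in aldh3a1_KO and 26.0% higher. Against it, 57.1% of Hox genes were called lower. The estimate lay below 0 for 46 of the 49 (for 42 with DESeq2's size factors or upper-quartile factors), and the median log2 fold change was -1.17, against -0.12 over all genes tested. Groups were also compared by range, on the scale of read counts divided by TMM-scaled library size (CPM). The 6 aldh3a1_KO values lay below the 5 WT values without overlap for 12 of the 49 Hox genes. That share is near the 20.0% of all genes that did so. They lay above without overlap for hoxb3a alone, where 17.8% of all genes did so. Because each library is RNA of whole embryos, fewer cells expressing a gene and less RNA per cell cannot be told apart. A test on log2(TPM + 1) moved the median of all genes to -0.26 and called 40 Hox genes lower and 1 higher, where it called 7992 of all genes lower and 4400 higher.

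By region of the axis, the posterior class held the most members and also the most members called. The share called lower was 69.6% of posterior, 58.3% of middle and 35.7% of anterior genes. Over all genes tested it was 29.3%, which the anterior share lies near. Of the 23 posterior genes 16 fell and 1 rose, with a median log2 fold change of -1.32. Of the 12 middle genes 7 fell, with a median of -1.02. Of the 14 anterior genes 5 fell and 1 rose, with a median of -0.48, which became -0.26 without aldh3a1_KO 5 and -0.86 on log2(TPM + 0.1). The median of all genes moved too, from -0.12 to -0.02 and -0.36 in those settings. Leaving out either aldh3a1_KO 2 or WT 3 brought the posterior count to 10, beside 28.1 and 25.6% of all genes called lower. Whether the classes differ was not tested.

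The main exception to the direction of the family was hoxb3a, whose span overlaps those of hoxb4a, hoxb5a and hoxb6a. How counts were split between these genes is uncertain. As counted, hoxb3a measured 224, 487 and 629 CPM (lowest, median and highest) in aldh3a1_KO, against 159, 172, 166, 143 and 128 CPM in WT 1 to WT 5. The lowest knockout library, aldh3a1_KO 4, lay above the highest WT library. Its log2 fold change was 1.55 ± 0.25 (SE), a 2.93-fold difference (adjusted p = 0.000169), and it was called in all 24 alternative analyses, at 1.14 to 1.75. It took 24.3 to 48.3% of the summed Hox TPM in aldh3a1_KO libraries and 7.31 to 10.9% in WT libraries. The 49 genes together summed to 276 to 641 TPM in aldh3a1_KO and 433 to 797 TPM in WT. Without hoxb3a the sums were 174 to 485 TPM in aldh3a1_KO and 386 to 739 TPM in WT, with a ratio of means of 0.481 in place of 0.654. Over all genes the median log2 fold change was -0.26 on log2(TPM + 1).

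**Figure D2:**
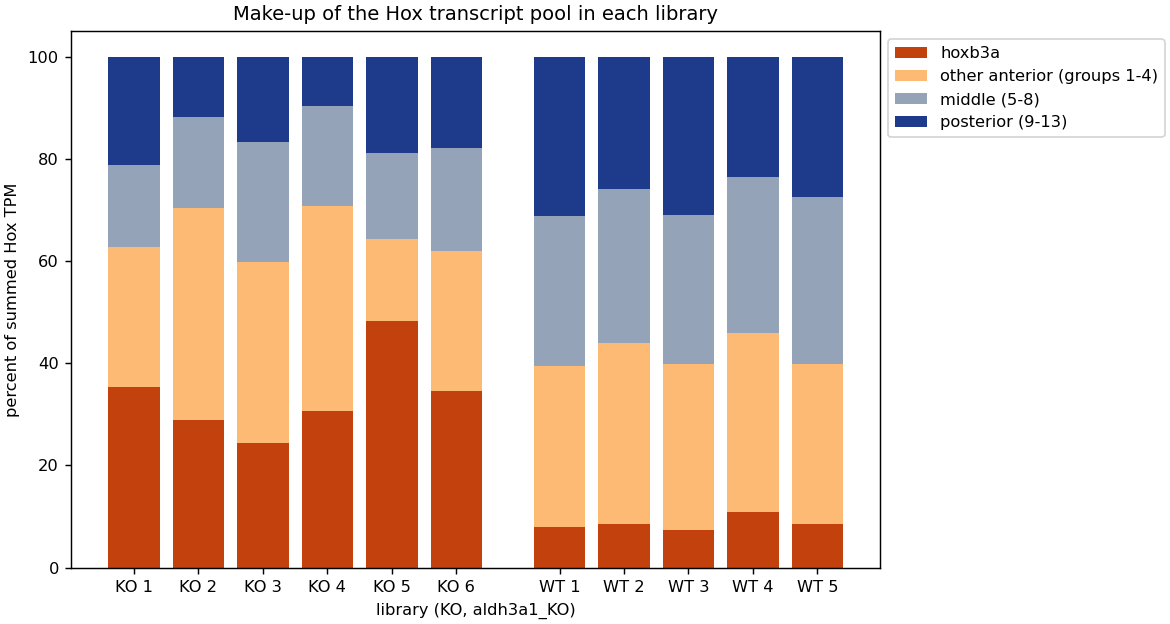
Stacked bars give, for each library (6 aldh3a1_KO left, 5 WT right), the percent of summed Hox TPM held by hoxb3a, by the other anterior genes, by middle genes and by posterior genes. The hoxb3a part reaches 24.3 to 48.3% in aldh3a1_KO and 7.31 to 10.9% in WT. The posterior part is 9.71 to 21.1% in aldh3a1_KO and 23.6 to 31.1% in WT. Because all parts share a total, a larger hoxb3a part lowers the others. With hoxb3a left out of the total, the posterior part was 24.8 ± 8.9% in aldh3a1_KO and 30.4 ± 3.16% in WT (mean ± SD). Those ranges overlapped, and aldh3a1_KO 5, at 36.5%, lay above the highest WT value, 33.8%.

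Group 1 genes pattern the hindbrain around rhombomere 4, where hoxb1a sets the identity of facial motor neurons. None of the 4 passed the test. Their log2 fold changes were -0.33 for hoxa1a, -0.98 for hoxb1a, -0.28 for hoxb1b and -0.68 for hoxc1a, with adjusted p of 0.108 to 0.517. Tests on TPM were run in 3 settings, log2(TPM + 1), the same without the filter on low counts, and log2(TPM + 0.1). In these and with an offset for transcript length hoxa1a was called lower, at -0.57 to -0.82 (adjusted p = 0.00937 to 0.0281). In 2 settings each hoxb1a and hoxc1a were called lower, the lowest adjusted p being 0.0443 and 0.0416. In group 2, hoxa2b, which gives the second pharyngeal arch its identity, measured 3.81, 8.09 and 10.9 CPM (lowest, median and highest) in aldh3a1_KO, against 20.1, 19.7, 17.2, 16.5 and 13.5 CPM in WT 1 to 5. The groups did not overlap, and it fell with a log2 fold change of -1.17 ± 0.26 (adjusted p = 0.00183). Its partner in the group, hoxb2a, had -0.05 ± 0.26 (adjusted p = 0.880), and that sign turned under 8 of 24 alternatives.

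Group 3 genes act in the posterior hindbrain and the arches behind it, and the members of this group were called in both directions. While hoxb3a rose, hoxa3a fell to 4.41, 12.9 and 19.0 CPM (lowest, median and highest) in aldh3a1_KO, against 30.6, 33.2, 34.9, 21.0 and 21.1 CPM in WT 1 to 5. Those ranges did not overlap, at a log2 fold change of -1.21 ± 0.30 (adjusted p = 0.00415). For hoxd3a, the most abundant hoxda gene in WT, the values were 14.9, 30.7 and 42.5 CPM in aldh3a1_KO and 44.9, 52.2, 48.1, 36.7 and 43.5 CPM in WT. Only aldh3a1_KO 3 reached into the WT range, and its log2 fold change of -0.60 ± 0.22 passed narrowly (adjusted p = 0.0355). That call was lost on leaving out any of 9 libraries, namely aldh3a1_KO 1, 2, 4, 5 or 6 and WT 1, 2, 3 or 5, with adjusted p of 0.0501 to 0.109. It was lost also with DESeq2's size factors, upper-quartile factors, DESeq2's Wald test or no filter. Without aldh3a1_KO 1, 5 and 6 together it was lost as well (adjusted p = 0.147). The remaining member, hoxc3a, had -0.07 ± 0.28 (adjusted p = 0.854), and its sign changed under 8 alternatives.

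Group 4 genes mark the hindbrain and spinal cord boundary and respond to retinoic acid, and 2 of the 4 had the steepest changes of the anterior class. The largest fall of any Hox gene was that of hoxb4a, at 0.357, 1.08 and 1.48 CPM (lowest, median and highest) in aldh3a1_KO, against 5.55, 10.2, 11.7, 4.44 and 3.73 CPM in WT 1 to 5. How counts were split between hoxb4a and hoxb3a, whose spans overlap, is uncertain. For hoxb4a all knockout libraries were below all WT libraries, with a log2 fold change of -2.90 ± 0.42 (adjusted p = 8.61e-05), 7.46-fold lower. Likewise hoxd4a measured 1.07, 2.97 and 3.95 CPM in aldh3a1_KO, against 13.6, 16.5, 15.9, 6.1 and 7.88 CPM in WT. Again there was no overlap, and hoxd4a fell by 2.19 ± 0.36 on the log2 scale (adjusted p = 0.000223). By contrast hoxc4a, the most abundant hoxca gene in WT, measured 19.8, 42.3 and 70.3 CPM in aldh3a1_KO and 35.2, 45.5, 41.6, 32.2 and 32.9 CPM in WT. The WT values lie inside the knockout range, the log2 fold change was 0.22 ± 0.29 (adjusted p = 0.536), and on the TPM scales it was -0.14 to -0.16. The median of all genes was -0.09 to -0.36 in those TPM settings. The fourth member, hoxa4a, had -0.36 ± 0.31 (adjusted p = 0.347).

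The middle genes pattern the trunk and in mouse help to set motor neuron columns. Of these, 3 of 4 group 5 genes and 3 of 4 group 6 genes fell, beside 29.3% of all genes tested. The steepest was hoxa5a, with 0.558, 1.42 and 4.19 CPM (lowest, median and highest) in aldh3a1_KO, against 10.1, 13.2, 13.1, 8.42 and 8.69 CPM in WT 1 to 5. It also had the highest mean of the hoxaa genes in WT on the TPM scale, at 23.7 ± 6.38 TPM. That rank lies within the SDs of hoxa4a (23.6 ± 6.68 TPM) and hoxa3a (22.5 ± 6.21 TPM). The CPM ranges of hoxa5a did not overlap, and its log2 fold change was -2.64 ± 0.39 (adjusted p = 9.88e-05). The gene hoxc5a measured 1.43, 2.76 and 6.86 CPM in aldh3a1_KO and 10.4, 10.7, 10.4, 7.77 and 9.79 CPM in WT. The ranges again did not overlap, at -1.59 ± 0.34 (adjusted p = 0.00128). For hoxb5a the fall of -0.69 ± 0.27 was slight (adjusted p = 0.0441), and it missed the threshold on leaving out any of 8 libraries (aldh3a1_KO 1, 2, 4 or 5, WT 1, 2, 3 or 5), at 0.0672 to 0.149. The call of hoxb5a was lost also with DESeq2's size factors, upper-quartile factors, DESeq2's Wald test or no filter. Without aldh3a1_KO 1, 5 and 6 together it was lost as well (adjusted p = 0.109).

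In group 6, hoxc6a had 0.390, 1.39 and 2.72 CPM (lowest, median and highest) in aldh3a1_KO, against 4.75, 6.82, 7.94, 2.67 and 3.92 CPM in WT 1 to 5. The highest knockout library, aldh3a1_KO 1, just passed the lowest WT library, WT 4, and the gene fell at a log2 fold change of -1.86 ± 0.46 (adjusted p = 0.00387). The gene hoxb6b, the most abundant hoxbb gene in WT, measured 2.26, 5.01 and 9.68 CPM in aldh3a1_KO and 15.7, 13.4, 14.3, 9.68 and 13.5 CPM in WT. Here aldh3a1_KO 3 and WT 4 met at the same rounded value, and the log2 fold change was -1.26 ± 0.29 (adjusted p = 0.00252). The copy hoxc6b, the most abundant hoxcb gene, had 9.11, 12.8 and 24.9 CPM in aldh3a1_KO and 20.5, 16.6, 17.6, 14.8 and 9.32 CPM in WT. The ranges overlap almost fully, at -0.08 ± 0.30 (adjusted p = 0.824). In group 8, hoxb8b measured 0.325, 1.28 and 2.10 CPM in aldh3a1_KO, against 4.6, 5.23, 7.3, 2.52 and 4.25 CPM in WT. It fell without overlap with a log2 fold change of -1.92 ± 0.40 (adjusted p = 0.00116), while hoxb8a, hoxc8a and the only group 7 gene, hoxb7a, had -0.69, -0.60 and -0.77 and were not called.

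The posterior genes of groups 9 and 10 act in the trunk and, in mouse, in the vertebrae of the chest and loins. Of the 9, 6 fell, where 29.3% of all genes tested were called lower. The others, hoxb9a, hoxd9a and hoxd10a, had -0.68, -0.88 and -0.76 (adjusted p = 0.0995, 0.0565 and 0.0610). They were called lower in 4, 6 and 6 of 24 alternatives. The calls of hoxa9b (-1.23 ± 0.45, adjusted p = 0.0323) and hoxc9a (-0.94 ± 0.34, adjusted p = 0.0299) were both lost with DESeq2's size factors or upper-quartile factors and on leaving out any of aldh3a1_KO 1, 2 or 5 or WT 1 or 3. That of hoxa9b was lost also without WT 2 and with the length offset, and that of hoxc10a (-0.98 ± 0.31) without aldh3a1_KO 6 (adjusted p = 0.0575). For hoxa9a the values were 2.60, 7.62 and 11.9 CPM (lowest, median and highest) in aldh3a1_KO and 22.6, 18.8, 22, 11.9 and 16.6 CPM in WT 1 to 5. The highest knockout and the lowest WT library touched, and the log2 fold change was -1.32 ± 0.31 (adjusted p = 0.00249). Lower without overlap was hoxa10b, at 2.86, 9.16 and 11.4 CPM in aldh3a1_KO and 19.8, 18, 19.6, 13.3 and 17.2 CPM in WT. It fell by 1.17 ± 0.31 on the log2 scale (adjusted p = 0.00594). Its mean in WT, 11.9 ± 3.23 TPM, was the highest of the hoxab genes. That rank lies within the SDs of hoxa9b (11.4 ± 3.80 TPM) and hoxa2b (11.1 ± 1.79 TPM). Also without overlap, hoxb10a had 2.21, 8.0 and 14.3 CPM in aldh3a1_KO, against 27.5, 24.9, 24.2, 15.8 and 21.0 CPM in WT. Its log2 fold change was -1.39 ± 0.37 (adjusted p = 0.00539).

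Group 11 genes help to pattern the middle limb segments in mouse, and the group held the other member that rose. The gene hoxa11a measured 5.51, 9.18 and 12.2 CPM (lowest, median and highest) in aldh3a1_KO, against 4.75, 4.06, 6.21, 5.14 and 3.68 CPM in WT 1 to 5. Of the knockouts aldh3a1_KO 2 and 4 lay within the WT range, and the log2 fold change was 0.91 ± 0.26 (adjusted p = 0.00879). Its highest values came from aldh3a1_KO 1, 5 and 6. Mitochondrial genes took most in those same libraries, and their part in the result was not tested. Without those 3 libraries the log2 fold change was 0.48 (adjusted p = 0.108), and in the 3 TPM settings the adjusted p was 0.0529 to 0.0614. Within the same group hoxd11a fell to 0.781, 2.34 and 5.68 CPM in aldh3a1_KO, against 10.6, 6.58, 9.67, 5.80 and 4.92 CPM in WT. Only aldh3a1_KO 6 reached the WT range, and the log2 fold change was -1.48 ± 0.45 (adjusted p = 0.0129).

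Groups 12 and 13, which are expressed nearest the tail and in the outer part of the fin bud, had the lowest medians of all groups, at -2.36 and -1.66. In group 12 all 3 members fell, hoxd12a narrowly losing its call without aldh3a1_KO 2 (adjusted p = 0.0501). In group 13 the fall was called for 5 of 6. Over all genes tested 29.3% were called lower. The gene hoxc12b had 0, 0.174 and 0.703 CPM (lowest, median and highest) in aldh3a1_KO, against 1.6, 1.16, 2.56, 0.555 and 0.621 CPM in WT 1 to 5. It rests on 17 counts over all knockout libraries and 132 over all WT libraries, and the library without a count, aldh3a1_KO 5, allows up to 0.357 CPM. Of the knockouts aldh3a1_KO 1 passed WT 4 and 5, and the log2 fold change was -2.47 ± 0.62 (adjusted p = 0.00408). The copy hoxc12a measured 0.195, 1.06 and 2.37 CPM in aldh3a1_KO and 6.1, 5.32, 12.7, 0.908 and 2.39 CPM in WT. It fell by 2.36 ± 0.65 on the log2 scale (adjusted p = 0.00726), although WT 4 lay inside the knockout range.

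The Hox13 genes are needed for the outermost skeleton of the fins in zebrafish. For hoxa13b the values were 0.238, 1.01 and 1.49 CPM (lowest, median and highest) in aldh3a1_KO and 3.65, 2.18, 4.83, 1.97 and 1.72 CPM in WT 1 to 5. The groups did not overlap, at a log2 fold change of -1.69 ± 0.42 (adjusted p = 0.00383). For hoxc13b they were 0.323, 0.609 and 1.67 CPM in aldh3a1_KO and 2.3, 1.6, 3.3, 1.87 and 2.53 CPM in WT. Of the knockouts aldh3a1_KO 5 passed the lowest WT library, and the log2 fold change was -1.74 ± 0.42 (adjusted p = 0.00319). The calls for hoxa13a (-1.31 ± 0.52, adjusted p = 0.0456) and hoxd13a (-1.78 ± 0.59, adjusted p = 0.0200) were less firm. The first was lost on leaving out any of 8 libraries (aldh3a1_KO 2, 3, 4, 5 or 6, WT 1, 2 or 3) and the other on leaving out aldh3a1_KO 1, 2 or 6 or WT 3. Both were lost without aldh3a1_KO 1, 5 and 6 together. That of hoxa13a was lost also with DESeq2's size factors, upper-quartile factors, DESeq2's Wald test or no filter. The fall of hoxb13a (-1.63 ± 0.54, adjusted p = 0.0190) was lost without WT 3 alone (adjusted p = 0.0644), and hoxc13a (-1.45 ± 0.67) missed the threshold (adjusted p = 0.0804).

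**Figure D3:**
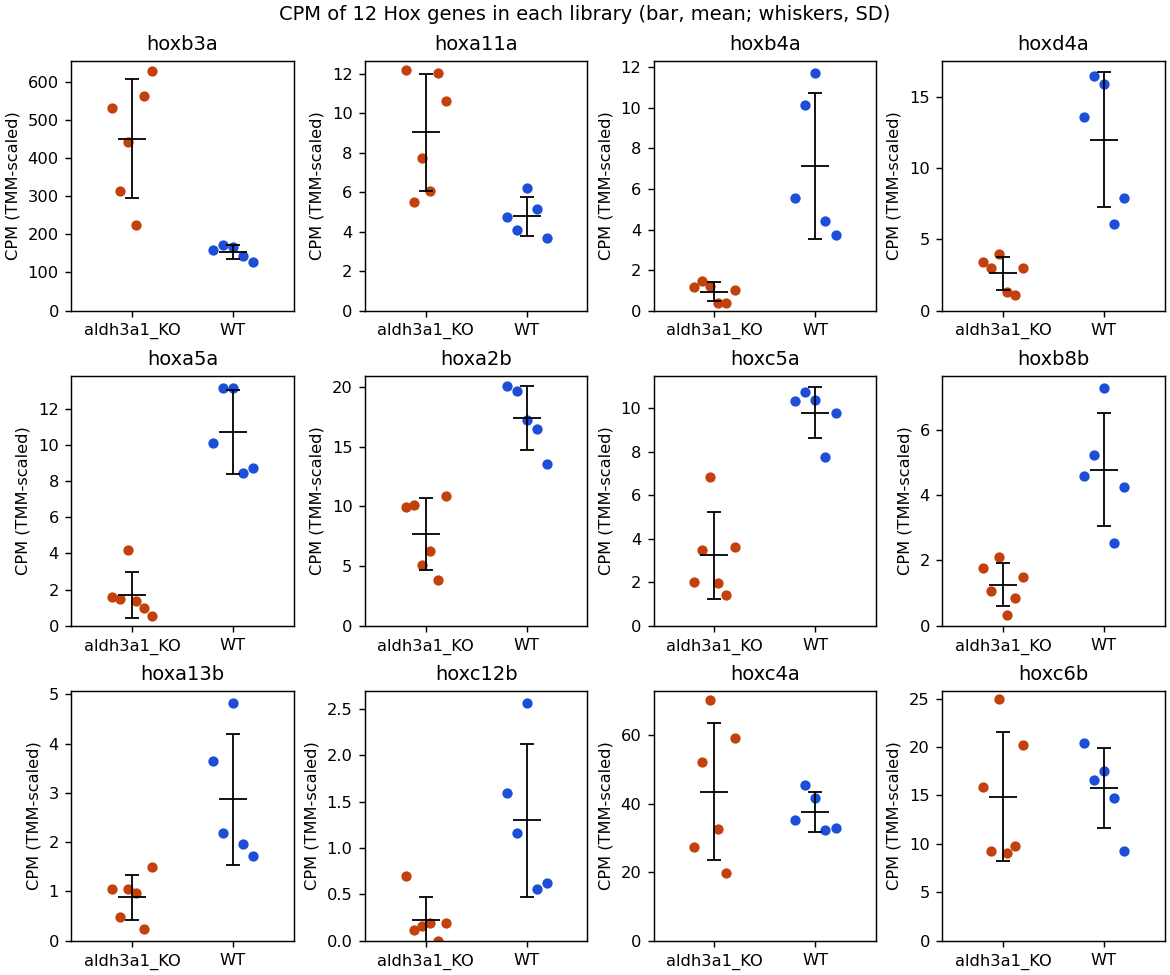
Points are TMM-scaled CPM of 12 Hox genes in each library, aldh3a1_KO left and WT right in each panel, with the mean (bar) and SD (whiskers), on axes that start at 0. Knockout points of hoxb3a (224 to 629 CPM) lie above WT, those of hoxb4a (0.357 to 1.48 CPM) lie below, and those of hoxc4a and hoxc6b span the WT range.

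Summed over paralogues, every group but group 3 had a lower mean TPM in aldh3a1_KO. All genes also ran lower on this scale, with a median log2 fold change of -0.26 on log2(TPM + 1) and -0.36 on log2(TPM + 0.1). Group 3 summed to 122 to 241 TPM in aldh3a1_KO and 105 to 144 TPM in WT, a ratio of means of 1.41. That rests on hoxb3a, since the other 3 members summed to 44.0 ± 21.9 TPM in aldh3a1_KO and 72.6 ± 11.8 TPM in WT, a ratio of 0.607. The lowest ratios were those of group 12, at 0.186, and group 13, at 0.268. Group 13 summed to 1.84 to 5.45 TPM in aldh3a1_KO, against 7.26 to 26.1 TPM in WT, without overlap. The ranges of groups 5 (11.1 to 49.9 TPM in aldh3a1_KO, 50.1 to 77.1 TPM in WT) and 10 (6.92 to 21.3 TPM in aldh3a1_KO, 22.9 to 47.4 TPM in WT) also stayed apart. Those of group 12, at 0.717 to 5.61 TPM in aldh3a1_KO and 5.51 to 35.0 TPM in WT, met at their ends.

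**Figure D4:**
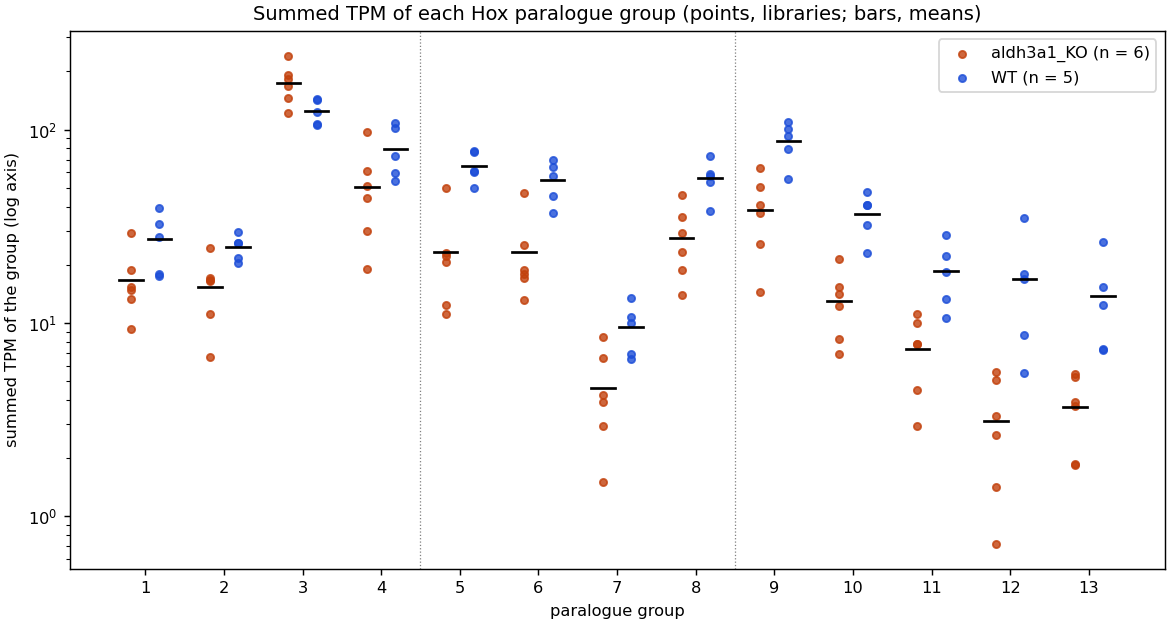
Points are the summed TPM of each paralogue group in each library on a log axis, aldh3a1_KO left of WT, with bars at the means. Group 3 sits higher in aldh3a1_KO (ratio of means 1.41, but 0.607 without hoxb3a), and the gap below WT is widest for group 12 (0.186).

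By cluster, the share of genes called lower ranged from 5 of 11 in hoxba to 4 of 5 in hoxab, against 29.3% of all genes. Between those lay hoxda with 5 of 7, hoxaa with 4 of 7, hoxca with 6 of 11, and hoxbb and hoxcb with 2 of 4 each. The median log2 fold change was lowest in hoxda, at -1.48, and highest in hoxba, at -0.77. Whether the clusters, some of only 4 genes, differ was not tested. On the TPM scale the cluster sums without hoxb3a had ratios of means from 0.334 in hoxab to 0.759 in hoxcb, with hoxba at 0.463. All genes ran lower on that scale too, with a median log2 fold change of -0.26 on log2(TPM + 1). With hoxb3a the hoxba sum was 202 ± 52.4 TPM in aldh3a1_KO and 204 ± 42.5 TPM in WT (SD, n = 6 and 5), so the cluster total differed little.

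In all, 11 pairs of duplicates kept in both an a and a b cluster could be set side by side. Both copies fell in 4 pairs (hoxa9, hoxa13, hoxb6 and hoxc12). In 5 pairs 1 copy fell and the other was not called (hoxb5, hoxb8, hoxc6, hoxc11 and hoxc13). Taken singly, 57.1% of Hox genes and 29.3% of all genes tested were called lower, so no agreement between copies is read from these counts. In the hoxa11 pair the a copy rose (0.91) and the b copy missed the threshold on the other side of 0 (-1.27, adjusted p = 0.0525), and neither copy of hoxb1 was called. The widest gaps of a minus b were 2.19 for hoxa11, -1.78 for hoxc6 and -1.46 for hoxc11 in log2 fold change, while both hoxb6 copies had -1.26. No pair was called in opposite directions here, but the hoxa11 pair was with the replicate block (hoxa11b at -1.22, adjusted p = 0.0187) and without aldh3a1_KO 3 or WT 4 (0.0483 and 0.0166). Differences within pairs were not tested.

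Libraries of 1 genotype differed in how far the posterior genes stood from the anterior ones. The summed TPM of posterior genes over that of anterior genes without hoxb3a was 0.770, 0.285, 0.468, 0.242, 1.17 and 0.650 in aldh3a1_KO 1 to 6, against 0.985, 0.734, 0.948, 0.674 and 0.874 in WT 1 to 5. The knockout values thus ranged from below to above all WT values. The lowest ratios were in aldh3a1_KO 4 and 2, which had the lowest mitochondrial shares of the group (5.01 and 7.44%), and the highest was in aldh3a1_KO 5 (19.8%). The larger shares of aldh3a1_KO 1 and 6 (25.9 and 20.9%) went with lower ratios than that, 0.770 and 0.650. WT libraries, with shares of only 4.63 to 5.62%, had 0.674 to 0.985. What part the mitochondrial share has in these ratios was not tested. Among WT libraries the widest ranges of CPM were 14-fold for hoxc12a and 9.18-fold for hoxc13a, WT 3 being highest and WT 4 lowest for both. Without aldh3a1_KO 1, 5 and 6, the libraries with the most mitochondrial counts, 27 Hox genes were called lower and 1 higher. Over all genes tested in that setting 26.1% were lower and 24.0% higher.

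**Figure D5:**
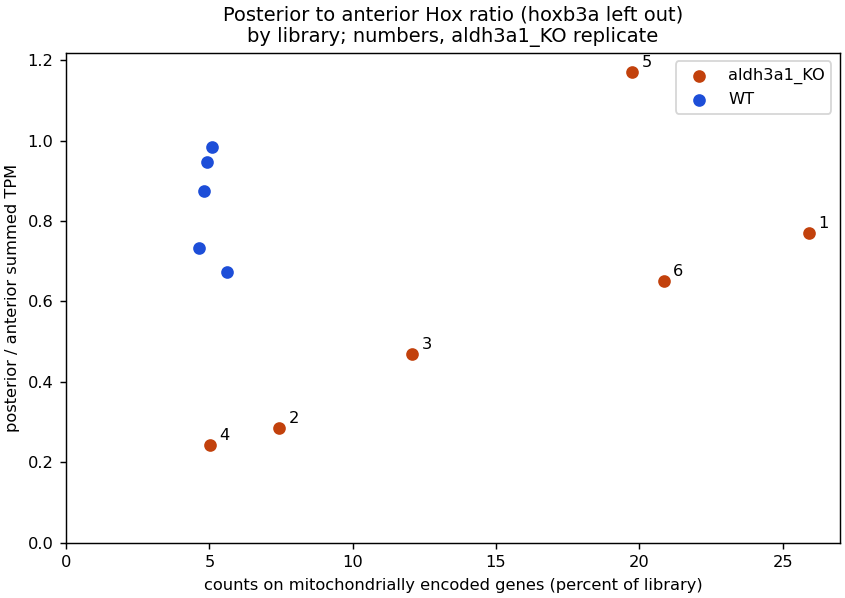
Each point is a library, placed by its percent of counts on mitochondrially encoded genes and by the ratio of posterior to anterior summed TPM with hoxb3a left out. Numbers give the aldh3a1_KO replicate, from 0.242 in replicate 4 to 1.17 in replicate 5, and WT points lie between 0.674 and 0.985.

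Hox genes lie close together, and in the RefSeq gene table the spans of 18 members overlap another Hox gene. In the a copies of the A, B, C and D clusters it is the group 3 gene whose span runs over its neighbours, as hoxb3a does over hoxb4a, hoxb5a and hoxb6a. Of the 18, 11 fell and 1 rose (61.1% lower, median log2 fold change -0.81). Of the 31 without such overlap 17 fell and 1 rose (54.8% lower, median -1.23). Over all genes tested 29.3% were lower. How the counts of overlapping genes were split is uncertain, so the opposite calls of hoxb3a and of hoxb4a, hoxb5a and hoxb6a carry that limit. The transcript length implied by counts and TPM, which moves when the mix of transcripts of a gene moves, was lower for hoxb3a in aldh3a1_KO than in WT by 0.07 on the log2 scale. For most other members it hardly moved, and the largest shifts were 0.32 for hoxa10b, -0.30 for hoxc6b, 0.25 for hoxa1a and 0.21 for hoxd3a. Over 18604 genes, 95% of shifts lay between -0.17 and 0.13.

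The 42 genes that flank the clusters, 3 on each side, had a median log2 fold change of -0.10, with 9 higher and 14 lower (21.4 and 33.3%), near the shares over all genes (26.0 and 29.3%). In the hoxaa cluster evx1 (0.21 ± 0.24, adjusted p = 0.468) and beside hoxda evx2 (-0.16 ± 0.26, adjusted p = 0.610), even-skipped homeobox genes that adjoin the group 13 genes, were not called. Another gene lying inside a cluster, calcoco1b in hoxcb, rose (1.51 ± 0.24, adjusted p = 0.000144). Of the ParaHox and even-skipped genes, relatives of the Hox genes, 3 of 6 tested rose and none fell (median 0.41). They were cdx1a at 1.09 ± 0.25, cdx1b at 0.61 ± 0.22 and gsx1 at 0.63 ± 0.25.

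Partners and regulators of Hox genes are read against the all-gene shares of 26.0% higher and 29.3% lower. Of 14 TALE cofactors 7 fell and 2 rose (50.0 and 14.3%, median -0.45), with meis1b at -1.73 ± 0.22, pbx1a at 1.68 ± 0.28 and pbx3b at 1.81 ± 0.32. Of 21 genes of the retinoic acid pathway 10 fell and 2 rose (47.6 and 9.52%, median -0.46), among them the receptor rarga (-1.45 ± 0.22), which flanks the hoxca cluster, the degrading enzyme cyp26a1 (-1.68 ± 0.25) and the receptor rxrbb (-1.64 ± 0.26). The Polycomb list had 6 lower and 5 higher of 27 (22.2 and 18.5%, median 0.03), no more than the share over all genes in either direction. Its leading members were jarid2b at 2.72 ± 0.26 and jarid2a at -2.53 ± 0.27, copies of a cofactor of Polycomb repressive complex 2, and phc3 at 2.61 ± 0.33, a subunit of complex 1. The Trithorax and acetyltransferase list had 6 higher and 3 lower of 22 (27.3 and 13.6%, median 0.19), its share higher near that over all genes, led by kmt2bb (2.63 ± 0.29) and kmt2cb (1.34 ± 0.20), which encode histone methyltransferases, and psip1b (2.49 ± 0.35).

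Genes that mark the regions where Hox genes act are given beside these results, and their part in them was not tested. The pectoral fin bud list had 8 lower and 1 higher of 13 (61.5 and 7.69%, median -0.94), with fgf10a at -2.0 ± 0.29 and and1, an actinodin of the fin fold, at -2.69 ± 0.41 against tbx5b at 1.43 ± 0.27. Its summed level was 163 to 219 CPM in aldh3a1_KO and 234 to 647 CPM in WT. The pharyngeal arch list had 8 lower and 1 higher of 17 (47.1 and 5.88%, median -0.51), led by barx1 (-3.39 ± 0.30), dlx4b (-3.14 ± 0.30) and dlx3b (-2.39 ± 0.28), and its summed level was 316 to 682 CPM in aldh3a1_KO and 531 to 659 CPM in WT. The hindbrain list had 4 higher and 5 lower of 17 (23.5 and 29.4%, median 0.00), near the all-gene shares of 26.0 and 29.3%, with efnb2a at -2.95 ± 0.32, efnb3b at -3.51 ± 0.43 and epha4b at -1.75 ± 0.29, ligands and a receptor that keep segments apart. Of its 4 members that rose, egr2a had the smallest adjusted p, at 1.49 ± 0.27. The spinal cord list had 3 higher and 5 lower of 19 (15.8 and 26.3%, median 0.04), below both shares, with the acetylcholine transporter slc18a3a at -1.18 ± 0.21, lhx3 at -2.57 ± 0.53 and mnx2a at -2.50 ± 0.52. Of its 3 members that rose, nkx6.1 had the smallest adjusted p, at 0.67 ± 0.17. Of 6 tail bud genes tested, msgn1 rose (2.62 ± 0.41) and wnt5b fell (-0.87 ± 0.16). The forebrain and midbrain list, from regions that lie ahead of Hox expression, had 7 higher and 5 lower of 22 (31.8 and 22.7%, median 0.35), also not far from the all-gene shares, led by pax6a (1.21 ± 0.17), en2b (1.18 ± 0.20) and rx2 (-1.52 ± 0.28).

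Marker lists of broad cell types stood as follows, against the same all-gene shares. Neuron markers had 5 higher of 10 (median 0.74, elavl3 at 2.01) and summed to 7124 to 13793 CPM in aldh3a1_KO and 3680 to 5345 CPM in WT. Skeletal muscle had 7 lower of 11 (median -1.36, actc1b at -1.36), and epidermis had 9 lower and 1 higher of 10 (median -1.77, krt4 at -1.83). Lens had 7 lower of 7 (median -3.34, cryaa at -2.76), endothelium 4 lower and 1 higher of 7 (median -1.72, fli1 at -1.90), and red cells 4 lower and 1 higher of 7 (median -0.81, hbae3 at -1.19). The summed levels were 3138 to 22962 CPM in aldh3a1_KO and 9650 to 48238 CPM in WT for muscle, and 2543 to 6232 CPM in aldh3a1_KO and 10584 to 17286 CPM in WT for epidermis.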

How the data were processed

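RNA of whole zebrafish embryos was sequenced on the BGISEQ-500, per the labels' protocols. Per the submitters' processing notes, reads were trimmed with Trim Galore 0.6.4 and quantified with kallisto 0.4.6, and the build was danRer11. The authors deposited estimated counts per gene (kallisto's expected counts, which need not be whole) and, in a second table per library, TPM, scaled by the authors for transcript length and depth. The deposited TPM of the listed genes summed to 915853 to 951128 per library. Whether the libraries or the counting were stranded is not given in the sources used here.

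Of 30243 Entrez identifiers, 25812 matched a symbol in RefSeq's gene table, and all 49 Hox symbols of that table had a row. Its assembly is GRCz12tu, so it gave names, overlaps and neighbours but no coordinates. Sequences were not used here. Counts were rounded, filtered with filterByExpr, TMM-scaled and tested with edgeR 4.0.16 in R 4.3.3 (robust quasi-likelihood F test, two-sided, all 11 libraries, no covariate). Fold changes are aldh3a1_KO over WT, with SE. Alternatives used limma 3.58.1 and DESeq2 1.42.0. Tables and plots used Python 3.11.15, numpy 2.4.6, pandas 2.3.3 and matplotlib 3.10.9.

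The Hox genes and the 17 lists set beside them were chosen with earlier results of these data known. Values by library (for the 6 aldh3a1_KO libraries the lowest, median and highest, except for aldh3a1) are given for aldh3a1 and, in each cluster, for the 2 members with the smallest adjusted p in each direction and the member with the highest mean TPM in WT. They are also given for pairs called in opposite directions and members with a whole group at 0, of which there were none. Values of hoxa3a and hoxc12a were added after they were seen. Of each list of regulators or regions, the 3 called members with the smallest adjusted p are named. For the hindbrain and spinal cord lists the called riser with the smallest adjusted p was added. No 2 libraries agreed within sampling noise, the smallest chi-square per degree of freedom between libraries of a group being 12.2. On simulated data with these group sizes and 21883 genes, the test called 26 of 97 genes given a 2-fold change and 83 of 95 given a 4-fold change. It also called 9 of 21691 given none. Far fewer genes changed there than the 55.3% called in these data, so those rates need not hold here. The limit given for a library without a count is 3 counts and covers counting error only.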

Additional observations from a re-analysis of the deposited data

Results flagged for a closer look

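Each Hox gene was examined in each genotype for a library far from the rest of its group, on the scale of TMM-scaled CPM. Of the 98 combinations of gene and genotype, 1 stood out, and chance alone marks about 1 in 20. It was hoxc5a in WT, where WT 4 was lowest at 7.77 CPM and the next library had 9.79 CPM. That gap made up 0.713 of the range of the 5 WT values. WT 4 still lay above the highest aldh3a1_KO value of hoxc5a, 6.86 CPM.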

How the results depend on the processing

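Over 24 alternatives, 19 of the 28 Hox genes called lower kept that call in every setting in which they were tested. The count of Hox genes lower was 23 with DESeq2's size factors or upper-quartile factors and 25 with its Wald test or no filter. Over all genes the shares lower there were 26.4, 25.3, 28.1 and 21.6%. On log2(TPM + 1) with and without the filter and on log2(TPM + 0.1) the Hox count was 37 to 40. The all-gene shares lower were 36.0, 28.2 and 35.5% in those 3 settings. On leaving out 1 library the Hox count was 20 to 33, beside 24.4 to 29.1% of all genes. Hox genes called higher numbered 1 in the 3 TPM settings and without aldh3a1_KO 1, 5 and 6. Of all genes 17.4 to 19.8% and 24.0% were higher there. In the same 4 settings posterior genes called higher numbered 0, since hoxa11a lost its call. Anterior genes called lower numbered 8 on log2(TPM + 1), and middle genes called lower 11 in all 3 TPM settings. Both counts stand beside the all-gene shares of those settings given above. The cause was not tested. On leaving out 1 library the posterior genes called lower ranged from 10 (without aldh3a1_KO 2 or WT 3) to 20. The median log2 fold change of the Hox genes less that of all genes was -1.06 in the main analysis and -0.76 to -1.21 over the settings other than leaving out 1 library. The estimates of 5 members that were not called turned sign. With DESeq2's size factors, upper-quartile factors and the Wald test they were 0.0327, 0.0570 and 0.0328 for hoxb2a, 0.0314, 0.0581 and 0.0314 for hoxc3a, 0.0161, 0.0418 and 0.0164 for hoxc6b and 0.0605, 0.0811 and 0.0802 for hoxc11b. Without aldh3a1_KO 1, 5 and 6 hoxb2a had 0.179 and hoxc3a 0.0733, hoxb2a had 0.0113 after thinning, and with a length offset, added after seeing the data, hoxc3a had 0.0344 and hoxc6b 0.266. For hoxc4a log2(TPM + 1), with or without the filter, gave -0.144 and log2(TPM + 0.1) gave -0.156. The median of all genes on log2(TPM + 1) was -0.256 with the filter and -0.0877 without it, and on log2(TPM + 0.1) it was -0.362. On leaving out 1 library the ranges were -0.116 to 0.202 for hoxb2a, -0.294 to 0.179 for hoxc3a, -0.277 to 0.127 for hoxc6b and -0.319 to 0.267 for hoxc11b. The lowest depth, 9.22 M counts, limits genes at a few counts such as hoxc12b, which was tested in 17 of the 24 alternatives. Deviations of same-numbered libraries correlated at 0.02 to 0.18. Differently numbered libraries were not compared, so whether same-numbered ones pair is not settled. The replicate block, with aldh3a1_KO 6 left out, called 35 Hox genes lower and 2 higher. The same libraries without the block gave 25 lower and 2 higher. Of all genes 25.2% were lower and 25.6% higher with the block, and 24.4 and 27.0% without it.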

Other observations

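Many genes of the miR-10 and miR-196 precursors lie in Hox clusters, and 9 such precursor genes were listed. Their positions were not looked up here, so none is assigned to a cluster described above. The gene mir10d had 23, 11, 13, 7, 5 and 12 estimated counts in aldh3a1_KO 1 to 6, against 2, 0, 1, 2 and 0 in WT 1 to 5, or 71 counts in aldh3a1_KO and 5 in WT in all. Every aldh3a1_KO value was above every WT value although the aldh3a1_KO libraries were smaller. Of all genes tested, 17.8% lay higher in aldh3a1_KO without overlap on the CPM scale, and no test of mir10d is given here. The other 8 precursor genes had at most 6 counts over the libraries of a group. These are precursor-gene counts, not levels of the mature miRNAs.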
